A study of Homo sapiens with 12 samples.

Results

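The comparison set 3 libraries labelled M-BSG-Hot against 3 labelled BSG, in RNA of 143B cells, an established human osteosarcoma line that the labels give as wild type. All 15407 genes that passed a low-count filter, of 24180 gene symbols in the deposited tables, were members of the comparison, and the other libraries of the series, 3 M-BSG and 3 NC, entered the same fit of 12 libraries. The titles match M-BSG-Hot to 5-MNP-BSG (+) of the article, M-BSG to 5-MNP-BSG without the sign, BSG to the group of that name and NC to the control, and the title of the series names borosilicate bioactive glass together with moderate magnetic hyperthermia. A single treatment text, which names 5-MNP-BSG and an alternating field, stands on all 12 samples, NC and BSG included, so the labels give for no group its own material, field, temperature, dose or exposure time, and "Hot" is the only word for heat. M-BSG-Hot differs from BSG by name in both the magnetic part and the heating, which cannot be told apart in this contrast alone, so the values of M-BSG are given beside it.

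Bioactive glasses dissolve in culture medium and release ions, and borosilicate forms are studied as bone fillers. In magnetic hyperthermia an alternating field makes magnetic particles give off heat. Cells that are heated activate the factor HSF1, which binds heat shock elements in the promoters of chaperone genes and raises their RNA for a limited time. Immediate-early genes such as FOS and EGR1 are switched on without new protein synthesis by growth factors, calcium and stress, and their short-lived RNAs fade soon after the stimulus. Neither the moment of harvest nor the time since heating is given in the labels.

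Most differences ran downward in M-BSG-Hot. By edgeR's quasi-likelihood test with Benjamini-Hochberg adjustment, 131 genes passed an adjusted p of 0.05 (0.85% of those tested), and these are the genes called higher or lower here. Of them 116 were lower (0.753%) and 15 were higher (0.0974%) in M-BSG-Hot, so that 88.5% of called genes were lower, while over all genes tested 50.7% had a log2 fold change below 0 and the median was -0.0032. At least a 2-fold difference was reached by 55 of the lower and 4 of the higher genes. The median log2 fold change, M-BSG-Hot over BSG, was -0.98 for the lower and 0.52 for the higher genes. In all 131 the libraries of the 2 groups did not overlap, as was so for 16.7% of all genes tested. An unadjusted p under 0.05 was reached by 13.7% of genes. The split moved with the processing, with 96 higher and 295 lower by DESeq2, 75 higher and 222 lower once a trend with gene length was removed, and 3 higher and 60 lower with the 6 libraries alone.

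**Figure D1:**
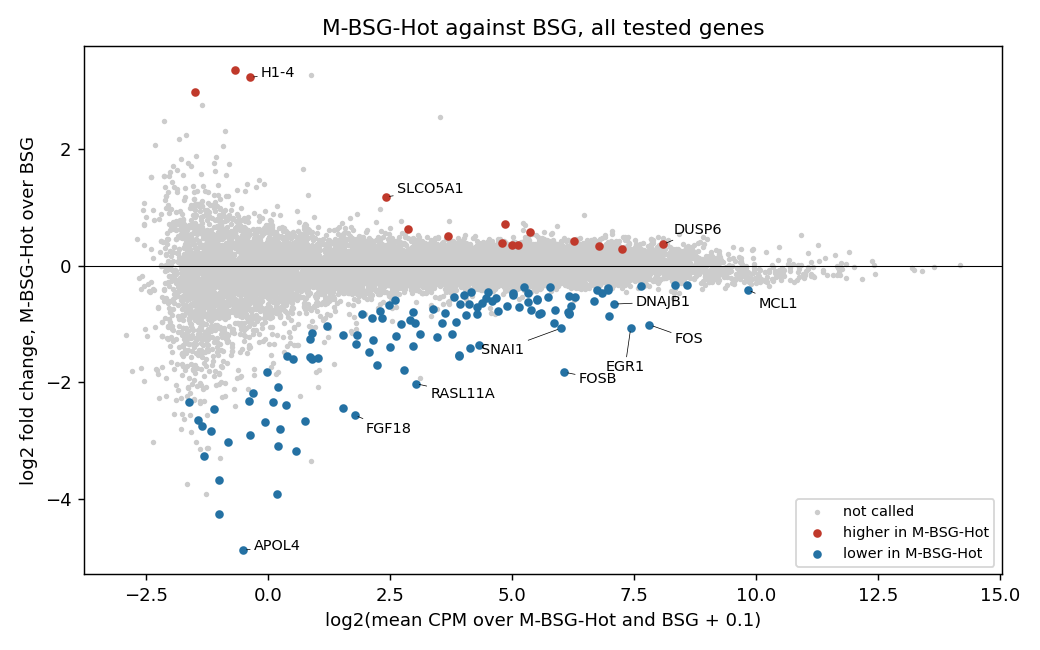
Each point is 1 of the 15407 genes tested, with its mean level over M-BSG-Hot and BSG on the x axis (log2 of CPM plus 0.1) and its log2 fold change, M-BSG-Hot over BSG, on the y axis. The 116 lower genes in blue spread from low to high levels, with FOS, FOSB and EGR1 among those of high level, and the 15 higher genes in red are few, with SLCO5A1 at 1.18.

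Whether the 3 replicates were grown as separate cultures is not in the labels, so a p here weighs differences against the spread among these libraries alone, which may be technical. Total counts were 34434993 to 38163152 per library, and a count of 0 allows up to 3 counts, or 0.0779 to 0.0851 CPM (counts of each library scaled to one common size using TMM factors), a limit for counting error only. Replicates of a group differed by more than sampling noise, with a chi-square per degree of freedom of 3.368 to 60.93, the highest for BSG 1 against BSG 2. The share of counts on ribosomal protein genes was 7.667%, 8.834% and 9.924% in M-BSG-Hot and 11.4%, 8.453% and 9.225% in BSG, and these groups overlapped (exact permutation test, two-sided, p = 0.5; the smallest p that 3 against 3 allows is 0.1). Of 12 mesenchymal markers 11 were in the deposited tables and 10 were tested, with a median log2 fold change of 0.04. VIM, CD44, SPARC, CDH2 and FN1 were among those tested, as were ALPL and COL1A1, with at most 132 and 339 counts in a library. THY1, with at most 1 count in a library, did not reach the test. For other cell types 2 of 8 immune, 2 of 6 endothelial and 1 of 7 muscle, fat or cartilage markers reached the test. The 2 immune ones were CD68, with up to 6091 counts in a library, and CD14, with up to 71. Of 7 epithelial markers 5 were tested and 0 called, among them the keratins KRT18, at 857 to 1036 CPM in M-BSG-Hot and 996 to 1250.1 CPM in BSG, and KRT8, at 341 to 416 and 352 to 425 CPM, and EPCAM, at 14.6 to 16.7 and 16.3 to 21.9 CPM, while CDH1, with at most 6 counts in a library, did not reach the test. In bulk RNA, fewer cells with a transcript and less of it per cell cannot be told apart.

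The immediate-early transcription factors held the most called genes of the 43 lists examined. Of 28 tested, 10 were lower in M-BSG-Hot, 0 were higher and 18 did not pass, with a list median of -0.32. Over all genes tested 0.753% were lower and 0.0974% higher, the shares to set beside each list count below. The lists were chosen with earlier results of these data known. The count of lower members was 3 to 12 over the alternatives: 3 without BSG 2, 4 without BSG 3, 6 without M-BSG-Hot 1 or M-BSG-Hot 3, and 5 with the 6 libraries alone. FOS, which pairs with JUN proteins in the AP-1 factor, had 109, 162 and 175 CPM in M-BSG-Hot, against 287, 323 and 293 CPM in BSG. It fell by 1.01 on the log2 scale in M-BSG-Hot (SE 0.143, edgeR adjusted p = 0.00333), and every M-BSG-Hot library lay below every BSG library. NC had 4.96, 4.28 and 3.73 CPM of FOS, so that M-BSG-Hot stood between BSG and NC. FOSB, a close relative of FOS, had 16.3, 39.4 and 32.7 CPM in M-BSG-Hot and 92.9, 116 and 104 CPM in BSG, and fell by 1.83 (SE 0.229, edgeR adjusted p = 0.00153), the largest change among the immediate-early factors called. The library M-BSG-Hot 1 was the lowest of its group for both genes, and it also had the lowest ribosomal protein share of the group, whose part in the result was not tested.

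Of the 4 EGR zinc finger factors tested 3 were lower, EGR1, EGR2 and EGR3, while EGR4, at 0.131 to 0.27 CPM in these groups, did not pass (log2 fold change -0.23, edgeR adjusted p = 0.9). EGR1 had 67.7, 136 and 129.9 CPM in M-BSG-Hot, against 204, 252 and 243 CPM in BSG, and fell by 1.07 (SE 0.198, edgeR adjusted p = 0.0214). EGR2 fell by 1.56 (SE 0.29, edgeR adjusted p = 0.0227), with 3.51, 10.5 and 8.72 CPM in M-BSG-Hot and 18.2, 26.5 and 22.2 CPM in BSG. EGR3 fell by 0.99 (SE 0.168, edgeR adjusted p = 0.0129), with a mean of 5.30 ± 0.0877 CPM in M-BSG-Hot and 10.5 ± 1.96 CPM in BSG (SD, n = 3 each). None of these groups overlapped, but the calls depend on single libraries. For EGR1 the edgeR adjusted p was 0.0697 without BSG 2 and 0.08 without BSG 3. For EGR2 it was 0.0765 without BSG 2, 0.0758 without BSG 3 and 0.0617 without M-BSG-Hot 3, and EGR3 lost its call without BSG 2, BSG 3, M-BSG-Hot 1 or M-BSG-Hot 3, with adjusted p up to 0.0707.

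The other called members were JUNB, NR4A2, NR4A3, IER5 and CSRNP1. CSRNP1, a nuclear protein whose gene AXIN1 can induce, had 45.7, 61.4 and 61.2 CPM in M-BSG-Hot and 91.5, 90.1 and 90.0 CPM in BSG, and fell by 0.69 (SE 0.115, edgeR adjusted p = 0.0111). The orphan nuclear receptor genes NR4A2 and NR4A3 fell by 1.18 (SE 0.225) and 1.60 (SE 0.314), with edgeR adjusted p of 0.0266 and 0.0284. Each lost its call without BSG 2, BSG 3, M-BSG-Hot 1 or M-BSG-Hot 3, and NR4A3 also without M-BSG 3, with adjusted p up to 0.142. JUNB, an AP-1 subunit, fell by 0.78 (SE 0.16, edgeR adjusted p = 0.0351) and IER5, a regulator that acts on HSF1, by 0.54 (SE 0.0932, edgeR adjusted p = 0.0135); leaving out single libraries took their adjusted p as high as 0.0973 and 0.0569. Of the members that did not pass, JUN had 367, 414 and 444 CPM in M-BSG-Hot and 429.6, 400.1 and 423 CPM in BSG, which overlapped (log2 fold change -0.03, SE 0.0761, edgeR adjusted p = 0.889). ATF3, a stress-induced repressor, had 10.4, 17.5 and 15.9 CPM in M-BSG-Hot and 19.4, 22.1 and 19.3 CPM in BSG, without overlap, but did not pass (log2 fold change -0.47, SE 0.157, edgeR adjusted p = 0.217).

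**Figure D2:**
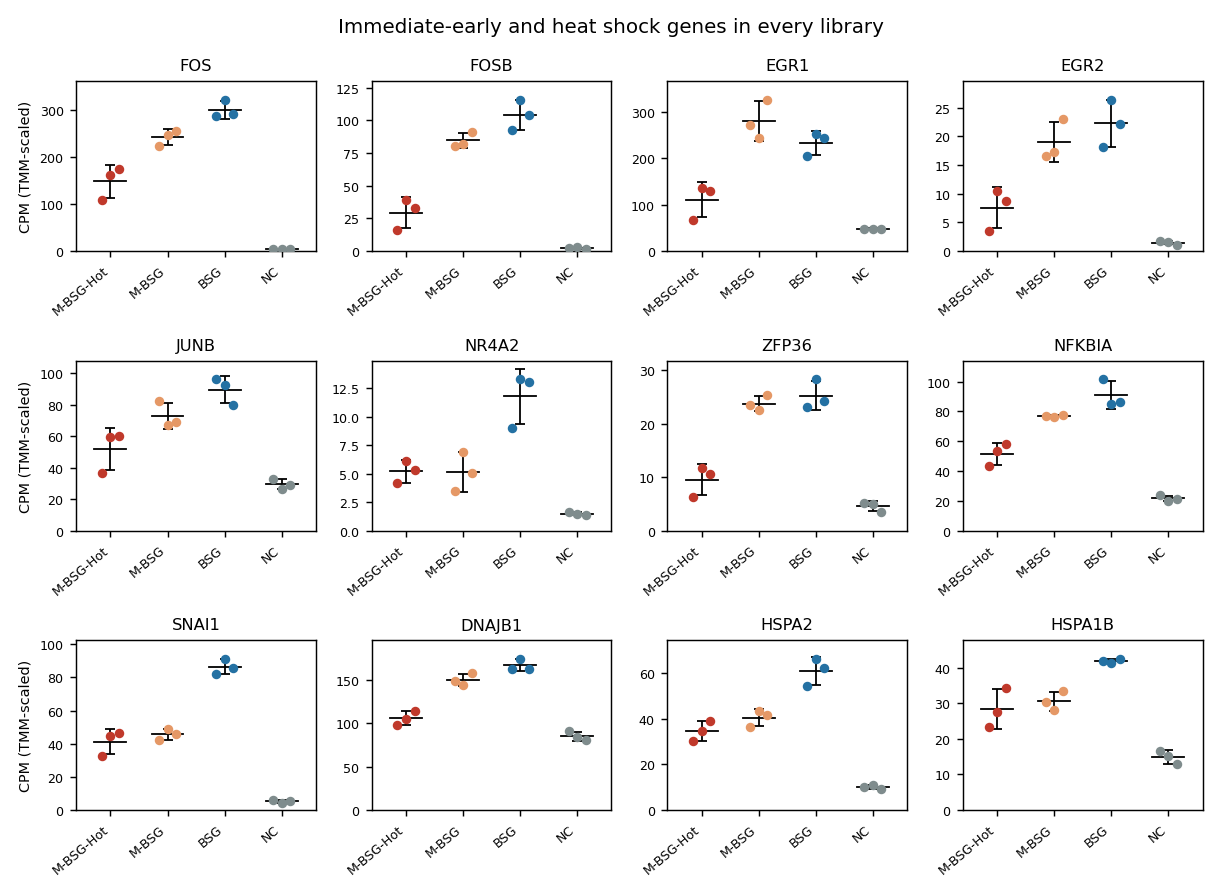
Points are the TMM-scaled CPM of each library for 12 genes, in the order M-BSG-Hot, M-BSG, BSG and NC, with bars for the mean and SD of 3 libraries. FOS, FOSB, EGR1, EGR2, JUNB and ZFP36 lie lower in M-BSG-Hot than in BSG and higher than in NC, with M-BSG between or near BSG; HSPA1B shows the same order of M-BSG-Hot and BSG but did not pass (adjusted p = 0.0594).

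Some genes that act in signalling and in the decay of short-lived RNAs were lower. ZFP36, which encodes tristetraprolin, a protein that binds AU-rich RNAs and speeds their decay, had 6.20, 11.7 and 10.7 CPM in M-BSG-Hot and 23.1, 28.4 and 24.3 CPM in BSG. It fell by 1.41 on the log2 scale in M-BSG-Hot (SE 0.195, edgeR adjusted p = 0.00297) with no overlap. Among 27 NF-kB targets and inflammation genes 2 were lower and 0 higher, with a list median of -0.116. NFKBIA, the inhibitor that holds NF-kB in the cytoplasm, had 43.3, 53.5 and 58.0 CPM in M-BSG-Hot and 102, 85.3 and 86.2 CPM in BSG, and fell by 0.82 (SE 0.109, edgeR adjusted p = 0.00233). ZC3H12A, an RNase that cuts inflammatory RNAs, fell by 0.96 (SE 0.157, edgeR adjusted p = 0.0106), a call lost without BSG 2 (0.0562) or M-BSG-Hot 1 (0.0708).

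Of the 4 EGF receptor ligands tested 1 was lower: HBEGF, a membrane-bound growth factor, had 25.8, 38.0 and 36.2 CPM in M-BSG-Hot and 61.2, 59.6 and 57.7 CPM in BSG, and fell by 0.83 (SE 0.118, edgeR adjusted p = 0.00334). Of 16 genes listed as ERK feedback inhibitors, not all of them inhibitors of ERK, 1 was lower and 1 higher, and the list median was 0.012. The lower one was DUSP10, a phosphatase of the stress kinases JNK and p38, with -0.79 (SE 0.136, edgeR adjusted p = 0.0143), or 0.0609 without BSG 2. The higher one was DUSP6, a phosphatase specific to ERK, with 339, 288 and 292 CPM in M-BSG-Hot against 233, 233 and 246 CPM in BSG (log2 fold change 0.37, SE 0.0774, edgeR adjusted p = 0.0429). DUSP6 lost its call without 10 of the 12 libraries in turn, with adjusted p up to 0.199, and kept it without M-BSG 1 or M-BSG 2.

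Of 13 cAMP and CREB targets 4 were lower and 0 higher (median -0.245), or 2 lower without BSG 2, BSG 3, M-BSG-Hot 1 or M-BSG-Hot 3, and NR4A2, NR4A3 and FOSB among them are counted above too. The remaining one, RGS2, which switches off signalling of Gq-coupled receptors, had 23.1, 29.1 and 27.5 CPM in M-BSG-Hot and 46.4, 41.5 and 42.6 CPM in BSG, and fell by 0.71 (SE 0.104, edgeR adjusted p = 0.00437). Of 13 TGF-beta targets 1 was lower, SNAI1, the Snail repressor of E-cadherin. SNAI1 had 32.6, 44.6 and 46.2 CPM in M-BSG-Hot, against 82.1, 91.3 and 85.9 CPM in BSG and 6.27, 4.39 and 5.495 CPM in NC, and fell by 1.07 (SE 0.132, edgeR adjusted p = 0.00127). The median of that list was 0.054, with 9 of its 13 members above 0. TWIST1, another factor of mesenchymal identity, was the only member called of 22 osteoblast lineage genes (median 0.029) and of the 10 mesenchymal markers tested. It fell by 0.53 (SE 0.0944, edgeR adjusted p = 0.0152), with 12.3, 10.5 and 11.3 CPM in M-BSG-Hot and 17.5, 15.9 and 16.05 CPM in BSG. Without BSG 1, BSG 2, BSG 3, M-BSG-Hot 2 or M-BSG-Hot 3 its adjusted p was 0.0513 to 0.0707. RUNX2, the master factor of bone formation, had 11.1, 13.7 and 10.2 CPM in M-BSG-Hot and 11.7, 14.5 and 16.9 CPM in BSG, which overlapped (edgeR adjusted p = 0.348).

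No heat shock gene was called higher in M-BSG-Hot than in BSG. Of 40 heat shock and cytosolic chaperone genes tested, 0 were higher, 3 were lower and 37 did not pass, and 35 had a log2 fold change below 0 (list median -0.144, against -0.0032 over all genes). In 16 of them every M-BSG-Hot library lay below every BSG library, as was so for 8.87% of all genes tested, and in 0 above. Over all genes tested 0.753% were called lower and 0.0974% higher. Over the alternatives 2 to 7 members were lower, 7 of them by DESeq2, and 0 were higher in each. HSPA2, a member of the HSP70 family, had 30.3, 34.6 and 38.9 CPM in M-BSG-Hot and 54.3, 66.5 and 62.2 CPM in BSG, and fell by 0.82 (SE 0.111, edgeR adjusted p = 0.0028). DNAJB1, the HSP40 partner that hands clients to HSP70, had 97.7, 105 and 114 CPM in M-BSG-Hot, against 163, 174 and 163 CPM in BSG. It fell by 0.66 (SE 0.0782, edgeR adjusted p = 0.00112), and its groups did not overlap. DNAJA1, another HSP40, had 342, 337 and 337 CPM in M-BSG-Hot and 459, 409 and 416 CPM in BSG, and fell by 0.34 (SE 0.0653, edgeR adjusted p = 0.0275). The DNAJA1 call was lost without 10 of the 12 libraries in turn, all but M-BSG 1 and M-BSG 2, with adjusted p up to 0.11, whereas HSPA2 and DNAJB1 kept theirs without each library. HSPA2, DNAJB1 and DNAJA1 were lower still in NC, with means of 10.3, 84.9 and 284 CPM. Their log2 fold changes of M-BSG-Hot over NC were 1.75, 0.31 and 0.26 (edgeR adjusted p = 9.64e-07, 0.0328 and 0.0372). Summed over the 40 tested genes, M-BSG-Hot had 16034, 15844 and 16661 CPM and BSG 19566, 17514 and 17939 CPM. NC had 14588, 14115 and 14236 CPM.

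The stress-inducible HSP70 genes HSPA1A and HSPA1B are near-identical copies that share reads, so their separate values are uncertain. HSPA1B had 23.4, 27.6 and 34.4 CPM in M-BSG-Hot and 42.0, 41.4 and 42.6 CPM in BSG, without overlap (log2 fold change -0.56, SE 0.128), and missed the threshold (edgeR adjusted p = 0.0594). HSPA1A had 19.8, 23.3 and 26.5 CPM in M-BSG-Hot and 34.98, 31.5 and 30.7 CPM in BSG (log2 fold change -0.48, SE 0.116, edgeR adjusted p = 0.0796). In NC the means were 14.97 ± 1.89 CPM for HSPA1B and 10.6 ± 1.21 CPM for HSPA1A (SD, n = 3), below every M-BSG-Hot and BSG library. HSPH1, a nucleotide exchange factor of HSP70, had 193, 168 and 143 CPM in M-BSG-Hot and 182, 199 and 199 CPM in BSG. HSP90AA1 averaged 3179.8 ± 125 CPM in M-BSG-Hot and 3553 ± 84.1 CPM in BSG, and HSPB1 138 ± 15.8 and 146 ± 32.0 CPM (SD, n = 3 each); neither passed (edgeR adjusted p = 0.319 and 0.846).

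Promoters of the heat shock genes are shown for the elements through which HSF1 acts. The 250 bases before the start of each gene, from RefSeq on GRCh38.p14, were searched on both strands for the heat shock element, here the units GAA, TTC and GAA with NN between neighbours, or TTC, GAA and TTC spaced the same way. It was present in 4 of the 34 heat shock genes with a promoter entry (11.8%), namely HSPA6, HSPA8, DNAJB6 and CHORDC1, and in 0.441% of 35116 promoters. Of the 81 lower genes with an entry 0 held it, which with a share of 0.441% over all promoters cannot show a lack. Only exact matches within these 250 bases were counted, so a gene without a match may hold an imperfect or more distant element. A match is a string of letters only and not a shown binding site. The elements are in capitals below, overlapping ones as 1 run, for HSPA8, the constitutive HSC70 (chr11:123062137-123062386, minus strand), for DNAJB6, an HSP40 that keeps proteins from aggregating (chr7:157336754-157337003, plus strand), and for CHORDC1, an HSP90 co-chaperone (chr11:90223050-90223299, minus strand).
HSPA8: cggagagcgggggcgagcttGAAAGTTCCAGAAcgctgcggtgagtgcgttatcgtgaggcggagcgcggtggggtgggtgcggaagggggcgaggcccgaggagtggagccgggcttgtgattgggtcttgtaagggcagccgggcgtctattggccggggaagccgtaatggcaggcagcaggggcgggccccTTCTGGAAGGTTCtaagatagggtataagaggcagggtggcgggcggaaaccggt
DNAJB6: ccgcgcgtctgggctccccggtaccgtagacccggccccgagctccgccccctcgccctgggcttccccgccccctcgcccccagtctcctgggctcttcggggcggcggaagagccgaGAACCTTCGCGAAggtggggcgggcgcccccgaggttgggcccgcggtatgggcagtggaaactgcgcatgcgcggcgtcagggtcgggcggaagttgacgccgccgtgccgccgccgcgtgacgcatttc
CHORDC1: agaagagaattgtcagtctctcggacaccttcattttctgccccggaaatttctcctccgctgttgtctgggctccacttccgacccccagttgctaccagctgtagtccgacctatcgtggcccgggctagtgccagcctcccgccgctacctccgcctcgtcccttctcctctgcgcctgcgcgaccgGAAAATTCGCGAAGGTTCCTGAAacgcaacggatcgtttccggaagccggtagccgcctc

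None of these genes was called. HSPA8 had 4170.2, 4105 and 4448 CPM in M-BSG-Hot and 5323, 4791 and 4849 CPM in BSG, without overlap (log2 fold change -0.23, SE 0.0748, edgeR adjusted p = 0.202). DNAJB6 had 81.2, 76.6 and 72.5 CPM in M-BSG-Hot and 89.8, 86.5 and 86.6 CPM in BSG (log2 fold change -0.19, SE 0.0678, edgeR adjusted p = 0.246). CHORDC1 had 77.1, 67.2 and 56.9 CPM in M-BSG-Hot and 66.5, 67.9 and 69.5 CPM in BSG, which overlapped (edgeR adjusted p = 0.95). HSPA6, a gene that is nearly silent in unstressed cells, had 0.136, 0.134 and 0.353 CPM in M-BSG-Hot and 0.392, 0.497 and 0.243 CPM in BSG (edgeR adjusted p = 0.487).

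The list of nuclear-retained and host-gene RNAs, which also holds RNAs of other kinds such as LENG8 and NORAD, gave 5 lower and 0 higher of 19 tested, against 0.753% and 0.0974% of all genes tested. Its median was -0.363, the lowest of the lists with at least 8 tested members. The count of lower members was 1 to 10 over the alternatives: 1 without M-BSG-Hot 1, 2 without BSG 2, 3 without BSG 3 or M-BSG-Hot 2, and 9 by DESeq2. Whether counting used strand is not given, so antisense, host and divergent transcripts may hold reads of a neighbour. MIR22HG, the host of miR-22, had 30.1, 42.7 and 44.5 CPM in M-BSG-Hot and 74.9, 77.7 and 78.2 CPM in BSG, and fell by 0.98 (SE 0.12, edgeR adjusted p = 0.00127). MALAT1, an abundant RNA of nuclear speckles, had 71.3, 95.7 and 75.0 CPM in M-BSG-Hot and 112, 123 and 133 CPM in BSG, and fell by 0.60 (SE 0.106, edgeR adjusted p = 0.0152). The MALAT1 call was lost without BSG 2 (0.0601), BSG 3 (0.0794), M-BSG-Hot 1 (0.0986) or M-BSG-Hot 3 (0.075). KCNQ1OT1, which silences an imprinted gene cluster, fell by 1.38 (SE 0.291, edgeR adjusted p = 0.0428), with 3.40, 5.45 and 3.91 CPM in M-BSG-Hot, against 7.64, 12.6 and 13.0 CPM in BSG and 9.98, 14.6 and 14.5 CPM in NC. KCNQ1OT1 kept its call without BSG 1, M-BSG 1 or M-BSG 3 and lost it without each of the other 9 libraries, with adjusted p up to 0.212.

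SNHG12, a host of small nucleolar RNAs, fell by 0.63 (SE 0.107, edgeR adjusted p = 0.0131), or had 0.0754 without M-BSG-Hot 1 and 0.0519 without M-BSG-Hot 2. MIR23AHG, the host of miR-23a, fell by 0.93 (SE 0.161, edgeR adjusted p = 0.0146), with 4.29, 6.41 and 4.48 CPM in M-BSG-Hot, against 9.26, 10.9 and 8.71 CPM in BSG and 26.9, 23.8 and 22.6 CPM in NC. That call was lost without BSG 2 (0.0637), M-BSG-Hot 1 (0.0925) or M-BSG-Hot 3 (0.072). NEAT1, the scaffold of paraspeckles, had 20.98, 25.2 and 19.8 CPM in M-BSG-Hot and 19.1, 20.3 and 25.7 CPM in BSG, which overlapped (edgeR adjusted p = 0.959), against a mean of 162 ± 2.48 CPM in NC. By gene type, 24 of 1662 lncRNA genes tested were lower (1.44%) and 1 higher, and 89 of 13286 protein-coding genes were lower (0.67%) and 14 higher.

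Among 22 splicing kinases and SR proteins 3 were lower and 0 higher (median -0.082). The lower count was 1 without BSG 3, M-BSG 3, M-BSG-Hot 1, M-BSG-Hot 3 or any NC library, and 8 by DESeq2. TRA2A, a splicing activator, had 56.1, 60.9 and 60.3 CPM in M-BSG-Hot and 89.5, 80.4 and 84.9 CPM in BSG, and fell by 0.52 (SE 0.0726, edgeR adjusted p = 0.00298), which held without each library. LUC7L3 and SRSF6, which act in 5' splice site choice and exon inclusion, fell by 0.46 (SE 0.0896) and 0.33 (SE 0.0703), with edgeR adjusted p of 0.0275 and 0.0429. LUC7L3 lost its call without 8 of the 12 libraries (adjusted p up to 0.126) and SRSF6 without 10 (up to 0.212). NXF1, the main export receptor of mRNA, which is in no list and was picked after its values were seen, had 77.8, 91.2 and 99.7 CPM in M-BSG-Hot and 158, 168 and 163 CPM in BSG. It fell by 0.87 (SE 0.0884, edgeR adjusted p = 0.000562), and it kept the call without each library.

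Among called genes that averaged 5 CPM or more in either group and had a symbol of the official kind, a growth factor fell most. FGF18, which acts in bone and cartilage growth, had 0.815, 1.154 and 0.896 CPM in M-BSG-Hot, against 6.60, 5.05 and 5.34 CPM in BSG and 0.227, 0.13 and 0.394 CPM in NC, and fell by 2.56 (SE 0.268, edgeR adjusted p = 0.000562). RASL11A, a small GTPase-like protein, had 2.26, 3.65 and 3.61 CPM in M-BSG-Hot and 16.1, 12.1 and 10.6 CPM in BSG, and fell by 2.02 (SE 0.197, edgeR adjusted p = 0.000562). Both groups lay apart for each gene, and M-BSG-Hot kept above NC for FGF18. S100A14, a calcium-binding protein found in epithelia, fell by 1.78 (SE 0.228, edgeR adjusted p = 0.00167), to 3.04 ± 0.954 CPM in M-BSG-Hot, against 10.5 ± 1.88 CPM in BSG and 0.0916 ± 0.0681 CPM in NC (SD, n = 3 each). OVGP1, an oviduct glycoprotein, fell by 1.35 (SE 0.142, edgeR adjusted p = 0.000562), LSMEM1, a small membrane protein, by 1.53 (SE 0.217, 0.00339) and GCNA, a germ cell nuclear antigen, by 1.48 (SE 0.212, 0.00351). The protocadherin PCDH10 fell by 1.39 (SE 0.252, edgeR adjusted p = 0.0192) and RND1, a small GTPase that loosens adhesions, by 1.27 (SE 0.272, 0.0478). PCDH10 lost its call without BSG 2, BSG 3, M-BSG-Hot 1 or M-BSG-Hot 2 (adjusted p up to 0.0925), and RND1 without 8 of the 12 libraries (up to 0.158).

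Survival, hypoxia and cell cycle genes gave few calls. Of 32 apoptosis genes 2 were lower, against 0.753% of all genes tested, and 0 higher (median -0.049). The 2 were MCL1, which blocks cell death, and BCL2L11, which encodes BIM and promotes it. MCL1 had 741, 825 and 769 CPM in M-BSG-Hot and 964, 1054 and 1089 CPM in BSG, and fell by 0.41 (SE 0.0779, edgeR adjusted p = 0.0254). BCL2L11 had 13.6, 16.6 and 13.9 CPM in M-BSG-Hot and 19.7, 29.4 and 22.8 CPM in BSG, and fell by 0.70 (SE 0.14, edgeR adjusted p = 0.031). Leaving out single libraries took the call from MCL1 in 6 of 12 cases and from BCL2L11 in 7, with adjusted p up to 0.134 and 0.16. Of 34 hypoxia and glycolysis genes 2 were lower (median 0.037). ADM, the vasodilator adrenomedullin, had 50.1, 55.3 and 51.8 CPM in M-BSG-Hot and 91.4, 93.5 and 89.4 CPM in BSG, and fell by 0.80 (SE 0.0835, edgeR adjusted p = 0.000562). SLC2A3, a glucose transporter, fell by 0.47 (SE 0.0906, edgeR adjusted p = 0.0274), a call lost in 7 of 12 cases (adjusted p up to 0.133).

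Of 39 DNA replication genes 1 was lower, against 0.753% of all genes tested. This was CCNE1, the cyclin of S phase entry, with 13.9, 15.2 and 15.6 CPM in M-BSG-Hot and 20.3, 19.8 and 20.8 CPM in BSG (log2 fold change -0.45, SE 0.0943, edgeR adjusted p = 0.0428). It lost its call in 10 of 12 cases (adjusted p up to 0.202). None of 38 mitosis genes was called, and MKI67, a marker of cycling cells, had 482, 424 and 375 CPM in M-BSG-Hot and 242, 399 and 399.8 CPM in BSG, which overlapped (edgeR adjusted p = 0.467). Of 25 endoplasmic reticulum chaperones 1 was lower, DNAJB9, by 0.55 (SE 0.11, edgeR adjusted p = 0.0337), a call lost in 9 of 12 cases (adjusted p up to 0.158). CDKN1A, the p21 inhibitor of the cell cycle, was not called, with 96.5, 119.9 and 128 CPM in M-BSG-Hot and 162, 148 and 141 CPM in BSG, without overlap (edgeR adjusted p = 0.111).

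**Figure D3:**
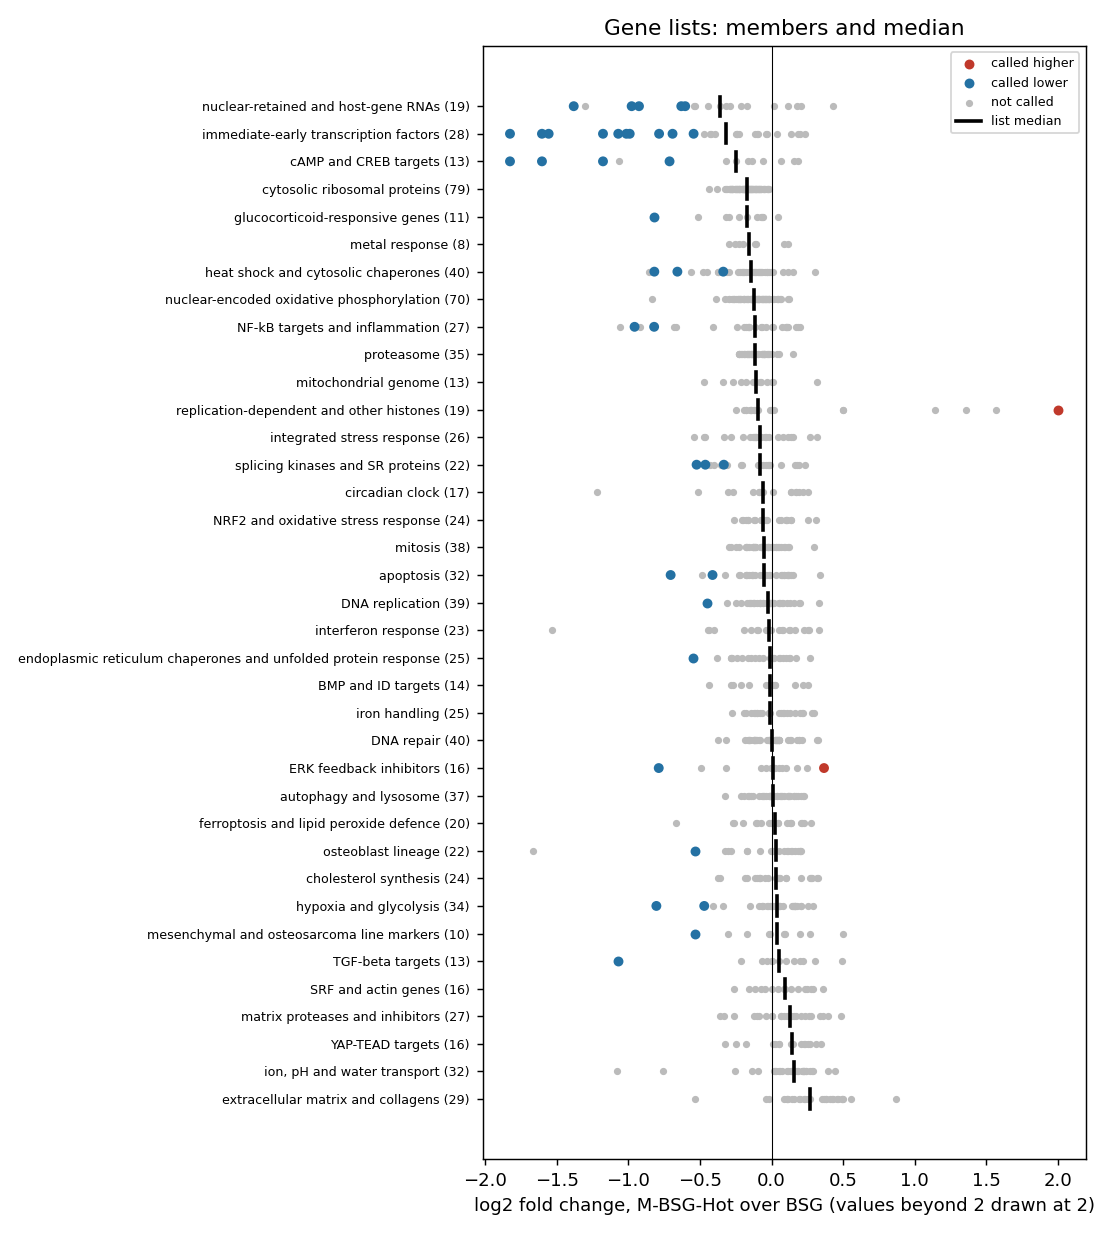
Each row is one of the gene lists with at least 8 tested members (number in brackets), each point a member's log2 fold change, M-BSG-Hot over BSG, coloured where called, and the black bar is the list median. The list of nuclear-retained and host-gene RNAs (median -0.363) and the immediate-early factors (-0.32) lie farthest below 0 and the extracellular matrix list (0.268) farthest above.

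Genes of iron and metal handling did not separate the groups at the threshold used. None of 25 iron handling, 8 metal response, 20 ferroptosis or 24 NRF2 genes was called, with list medians of -0.0081, -0.157, 0.024 and -0.056. Over all genes tested 0.85% were called. FTH1, the ferritin heavy chain, had 731, 769 and 846 CPM in M-BSG-Hot and 1031, 747 and 735 CPM in BSG, which overlapped (log2 fold change -0.10, SE 0.123). FTL, the light chain, had 758, 836 and 896 CPM in M-BSG-Hot and 1117, 966 and 938 CPM in BSG (log2 fold change -0.28, SE 0.121, edgeR adjusted p = 0.331). TFRC, which takes up transferrin-bound iron, had 497, 379.8 and 337 CPM in M-BSG-Hot and 289.6, 370.2 and 388 CPM in BSG (edgeR adjusted p = 0.564). HMOX1, which breaks down heme, averaged 10.7 ± 0.404 CPM in M-BSG-Hot and 11.7 ± 0.287 CPM in BSG, and the metallothionein MT2A 391 ± 35.04 and 458 ± 85.0 CPM (SD, n = 3 each), with edgeR adjusted p of 0.748 and 0.535.

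The extracellular matrix list had the highest median of the lists with at least 8 tested members, with 0 called. Of its 29 tested genes 26 had a log2 fold change above 0, the median was 0.268, and in 12 the libraries did not overlap with M-BSG-Hot above BSG, as was so for 7.83% of all genes. HSPG2, the basement membrane proteoglycan perlecan, had 144, 104 and 96.4 CPM in M-BSG-Hot and 50.1, 74.2 and 64.2 CPM in BSG (log2 fold change 0.87, SE 0.215, edgeR adjusted p = 0.0893). FN1, fibronectin, had 208, 175 and 171 CPM in M-BSG-Hot and 102, 141 and 149 CPM in BSG (log2 fold change 0.50, SE 0.162, edgeR adjusted p = 0.209). BSG 1 was the lowest library of BSG for HSPG2 and FN1, and without BSG 1 the list median was 0.22. COL1A1, the main collagen of bone, had 8.05, 8.77 and 7.52 CPM in M-BSG-Hot and 8.12, 7.84 and 5.23 CPM in BSG, which overlapped (edgeR adjusted p = 0.585). HSPG2 and FN1 were picked after their values were seen.

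BSG 1 moved other lists too. All 79 cytosolic ribosomal protein genes had a log2 fold change below 0, with a median of -0.171 and 0 called, and without BSG 1 the median was -0.0036. For 70 nuclear genes of oxidative phosphorylation the median was -0.124, or 0.026 without BSG 1, and for 35 proteasome genes it was -0.114, or 0.00016 without BSG 1. The immediate-early and heat shock medians were -0.311 and -0.109 without it.

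Of the 15 higher genes 12 averaged 5 CPM or more in either group, and 1 of these kept its call without each library in turn. SLCO5A1, an organic anion transporter family member, had 8.32, 6.98 and 6.46 CPM in M-BSG-Hot, against 3.01, 2.98 and 3.30 CPM in M-BSG, 2.77, 3.53 and 3.29 CPM in BSG and 2.44, 2.73 and 3.00 CPM in NC. It rose by 1.18 on the log2 scale (SE 0.149, edgeR adjusted p = 0.00153), and the 3 M-BSG-Hot libraries stood above all 9 others. The other 11 had log2 fold changes of 0.30 to 0.72, and each lost its call without 7 to 11 of the 12 libraries, with adjusted p up to 0.199. Among them were STAG3L5P-PVRIG2P-PILRB, CASZ1, ADGRG1, PCDH1, PC, XYLT2, DUSP6, SEMA4B, TP53INP2 and IRF2BPL.

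STAG3L5P-PVRIG2P-PILRB, a read-through transcript that shares reads with its parts and so is uncertain, had 39.2, 33.0 and 35.03 CPM in M-BSG-Hot, against 16.8, 25.9 and 22.5 CPM in BSG and 41.3, 40.6 and 42.6 CPM in NC (log2 fold change 0.72, SE 0.14, edgeR adjusted p = 0.0284). ADGRG1, an adhesion receptor, had 53.6, 46.4 and 47.3 CPM in M-BSG-Hot and 27.4, 35.2 and 35.8 CPM in BSG (0.58, SE 0.122, edgeR adjusted p = 0.0428). PC, the mitochondrial pyruvate carboxylase, had 95.5, 80.7 and 87.4 CPM in M-BSG-Hot and 66.5, 65.1 and 65.3 CPM in BSG (0.42, SE 0.0811, edgeR adjusted p = 0.0274). XYLT2, which starts the sugar chains of proteoglycans, rose by 0.40 (SE 0.0775, edgeR adjusted p = 0.0284), with 31.3 ± 0.543 CPM in M-BSG-Hot, 23.8 ± 1.75 CPM in BSG and 32.4 ± 1.29 CPM in NC (SD, n = 3 each).

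**Figure D4:**
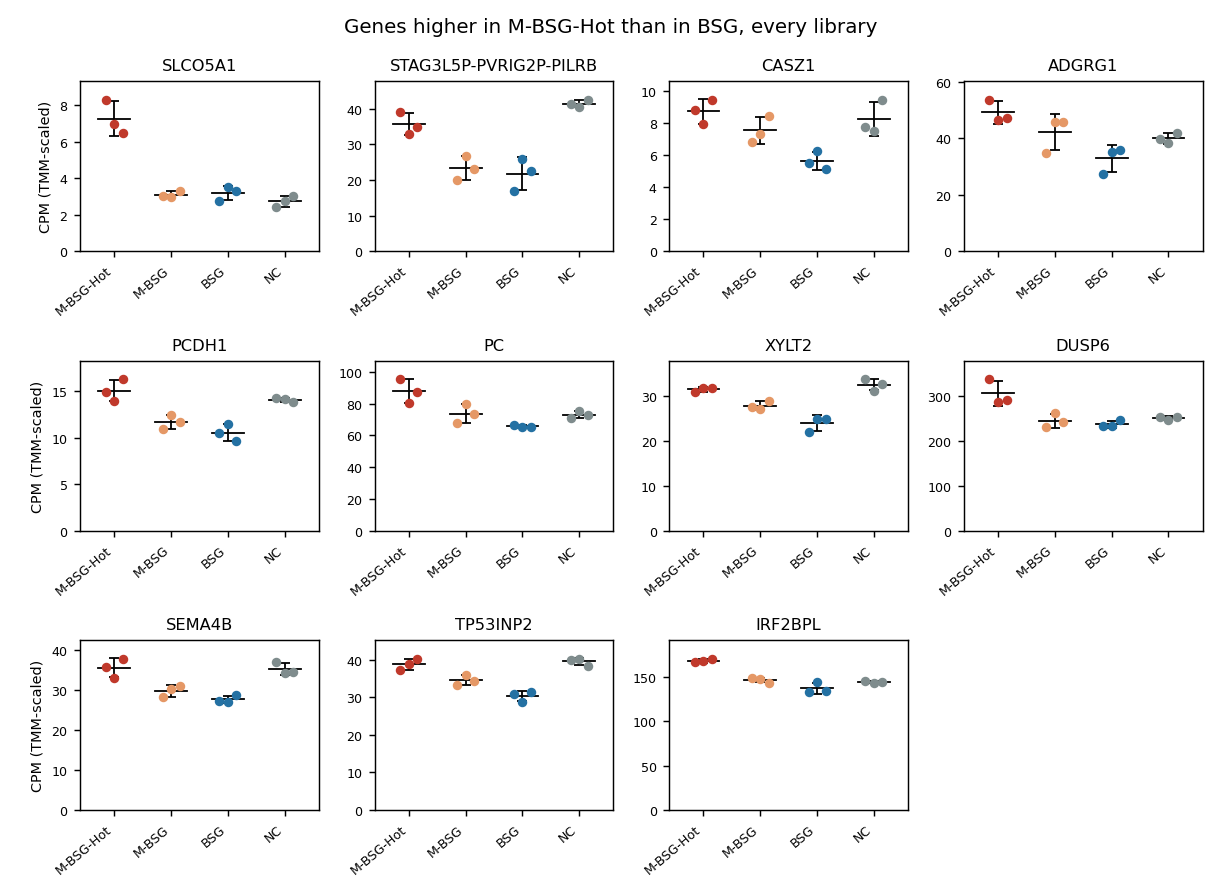
Points are the TMM-scaled CPM of each library for 11 of the higher genes that averaged 5 CPM or more, in the order M-BSG-Hot, M-BSG, BSG and NC, with bars for the mean and SD of 3 libraries. SLCO5A1 is high in M-BSG-Hot alone, while for TP53INP2, XYLT2 and SEMA4B the NC libraries lie near those of M-BSG-Hot.

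Of the motifs searched, only the cAMP response element TGACGTCA, the site of CREB family factors, was found in the promoters of the higher genes. It was present in 3 of the 12 with a promoter entry (25%), STAG3L5P-PVRIG2P-PILRB, TP53INP2 and IRF2BPL, in 2 of 81 lower genes (2.47%) and in 1.65% of all promoters, and no test was made of so few. The immediate-early list, with 0 higher genes, also held the cAMP response element, in 2 of 21 promoters (9.52%), those of JUND and MAFF. The share of all promoters counts all 35116 entries, of genes tested or not, and each gene set 1 entry per gene. The AP-1 site TGANTCA was in 0 of the higher, 4 of 81 lower genes (4.94%) and 6.57% of all promoters. TP53INP2, which acts in autophagy (chr20:34704094-34704343, plus strand), and IRF2BPL, a transcriptional regulator (chr14:77028709-77028958, minus strand), are shown with the element in capitals, in the RefSeq sequence of GRCh38.p14.
TP53INP2: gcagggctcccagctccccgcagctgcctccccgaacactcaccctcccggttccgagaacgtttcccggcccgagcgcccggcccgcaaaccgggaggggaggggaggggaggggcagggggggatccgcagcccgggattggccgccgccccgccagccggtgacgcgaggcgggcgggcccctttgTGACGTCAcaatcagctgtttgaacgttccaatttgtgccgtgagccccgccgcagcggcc
IRF2BPL: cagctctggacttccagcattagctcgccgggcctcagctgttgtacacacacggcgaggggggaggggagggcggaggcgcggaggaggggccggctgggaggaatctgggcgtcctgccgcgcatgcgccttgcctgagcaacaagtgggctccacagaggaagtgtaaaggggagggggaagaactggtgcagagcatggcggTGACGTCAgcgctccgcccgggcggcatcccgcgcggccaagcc

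TP53INP2 had 37.2, 38.8 and 40.2 CPM in M-BSG-Hot, against 30.9, 28.8 and 31.3 CPM in BSG (log2 fold change 0.35, SE 0.0716, edgeR adjusted p = 0.0351). IRF2BPL had 166, 168 and 171 CPM in M-BSG-Hot and 133, 144 and 134 CPM in BSG (log2 fold change 0.30, SE 0.0619, edgeR adjusted p = 0.0411). The groups did not overlap for either gene.

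The 3 higher genes below 5 CPM were histone genes, H1-4, H1-5 and H3C13, whose RNAs normally carry no poly(A) tail. All 3 reached the filter's minimum count of 10 in M-BSG-Hot libraries alone. They thus entered the test only through the group where they were high, so a call could only come out as higher. H1-4, a linker histone, had 1.44, 1.42 and 0.788 CPM in M-BSG-Hot and 0.224, 0.0784 and 0.0809 CPM in BSG (log2 fold change 3.23, SE 0.65, edgeR adjusted p = 0.0338). H1-4 lost its call without 7 of the 12 libraries, with adjusted p up to 0.163, while leaving out a library took H1-5 as high as 0.181 and H3C13 as high as 0.144. The fixed histone list had 1 higher of 19 tested. Looked at after these values were seen, all 62 replication-dependent histone genes in the tables gave 19 with every M-BSG-Hot library above every BSG library and 0 the other way, against 5.94% and 7.7% of 22938 symbols with a count. Summed over all 62, the level was 93.58, 100.8 and 108.4 CPM in M-BSG-Hot, against 75.39, 67.33 and 68.72 CPM in M-BSG, 99.48, 83.66 and 93.2 CPM in BSG and 60.67, 56.32 and 57.85 CPM in NC, so that M-BSG-Hot and BSG overlapped. H2BC12 and H2BC21 made up most of that sum and did not pass, with log2 fold changes of 0.02 and -0.19 (edgeR adjusted p = 0.949 and 0.663). Without these 2, a choice made after their values were seen, the sum was 25.4, 29.7 and 27.0 CPM in M-BSG-Hot, against 13.0, 11.6 and 14.1 CPM in M-BSG, 18.9, 16.8 and 16.4 CPM in BSG and 12.0, 11.2 and 10.3 CPM in NC. The number of the 62 with at least 1 count was 56, 59 and 57 in M-BSG-Hot, 41, 43 and 41 in M-BSG, 50, 49 and 47 in BSG and 38, 34 and 36 in NC. Near-identical histone copies share reads, and how much RNA without a poly(A) tail each library took in was not tested.

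**Figure D5:**
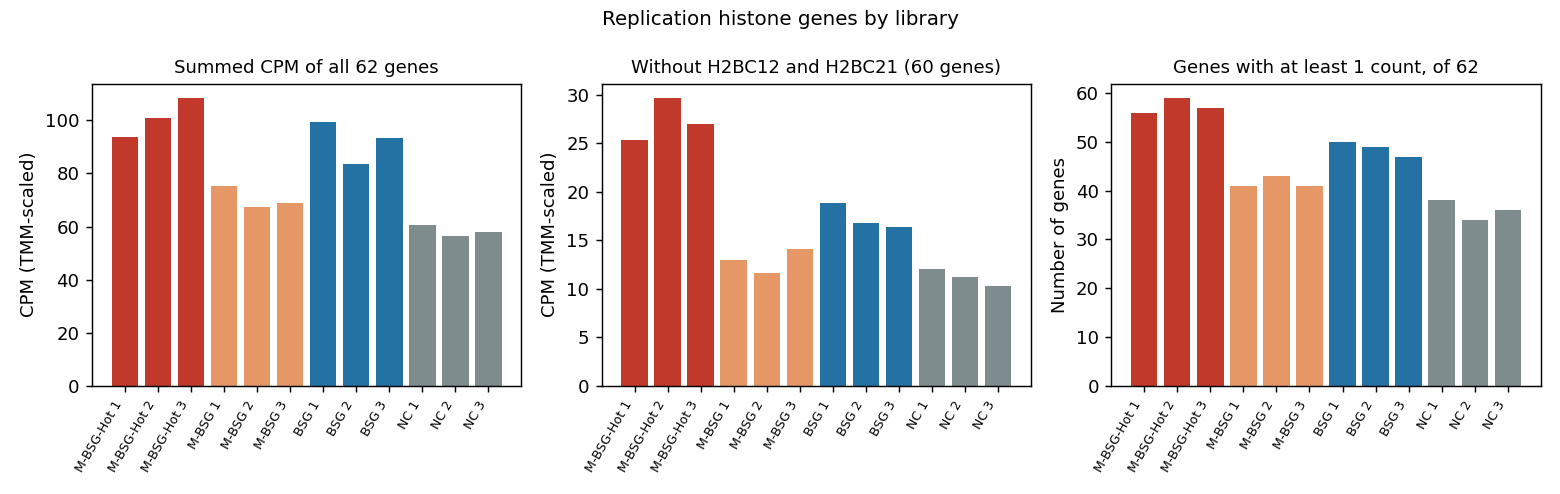
Bars are single libraries, in the order M-BSG-Hot, M-BSG, BSG and NC, with the summed TMM-scaled CPM of all 62 replication histone genes on the left, the sum without H2BC12 and H2BC21 in the middle and the number of the 62 genes with at least 1 count on the right. On the left M-BSG-Hot and BSG overlap, with BSG 1 at 99.48 CPM above M-BSG-Hot 1 at 93.58 CPM, while in the middle (25.4 to 29.7 CPM) and on the right (56 to 59 genes) the 3 M-BSG-Hot libraries stand above the other 9.

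The values through M-BSG place the named genes, in comparisons that share libraries with the main one. M-BSG against BSG gave 20 called genes (0.13%), 0 higher and 20 lower, and M-BSG-Hot against M-BSG gave 107 (0.694%), 15 higher and 92 lower. FOSB had 80.5, 82.1 and 91.3 CPM in M-BSG, with log2 fold changes of -1.52 for M-BSG-Hot over M-BSG (edgeR adjusted p = 0.00773) and -0.30 for M-BSG over BSG (0.638). For EGR1 these were -1.34 (edgeR adjusted p = 0.00767) and 0.27 (0.638), for ZFP36 -1.32 (0.00749) and -0.09 (0.855), and for DNAJB1 -0.50 (0.00864) and -0.15 (0.635). For FOS they were -0.70 (edgeR adjusted p = 0.039) and -0.31 (0.635). The immediate-early factors were not alike here, as NR4A2 had 0.02 (edgeR adjusted p = 0.991) and -1.19 (0.067). KCNQ1OT1 had 8.90, 16.9 and 19.4 CPM in M-BSG, with -1.83 (edgeR adjusted p = 0.0105) and 0.44 (0.635).

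SNAI1, FGF18 and RGS2 were called lower than in BSG already in M-BSG. SNAI1 had 42.5, 49.0 and 45.7 CPM there, with log2 fold changes of -0.15 for M-BSG-Hot over M-BSG (edgeR adjusted p = 0.819) and -0.92 for M-BSG over BSG (0.0094). FGF18 had 1.89, 1.199 and 1.23 CPM in M-BSG, with -0.59 (edgeR adjusted p = 0.584) and -1.97 (0.00471). RGS2 had 23.7, 20.9 and 19.3 CPM in M-BSG, with 0.32 (edgeR adjusted p = 0.296) and -1.03 (0.00138). Some called genes passed in neither step. HSPA2 had 36.4, 43.5 and 41.6 CPM in M-BSG, with -0.23 (edgeR adjusted p = 0.596) and -0.59 (0.067). LSMEM1 had -0.71 (edgeR adjusted p = 0.251) and -0.83 (0.423), S100A14 -0.97 (0.0936) and -0.81 (0.493), and HBEGF -0.31 (0.422) and -0.53 (0.202). RASD1, a Ras-like GTPase, and ID2, an inhibitor of differentiation factors, were lowest in M-BSG among the glass groups. RASD1 had 11.4, 15.3 and 17.6 CPM in M-BSG-Hot, 7.91, 9.27 and 6.05 CPM in M-BSG, 21.7, 21.6 and 19.8 CPM in BSG and 0.255, 0.13 and 0.0789 CPM in NC, and did not pass in M-BSG-Hot against BSG (log2 fold change -0.51, SE 0.176, edgeR adjusted p = 0.233). ID2 had 40.1, 33.7 and 43.4 CPM in M-BSG-Hot, 23.1, 19.6 and 16.7 CPM in M-BSG and 48.6, 37.9 and 44.2 CPM in BSG, where M-BSG-Hot and BSG overlapped (log2 fold change -0.16, edgeR adjusted p = 0.652).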

How the data were processed

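RNA-seq of 143B cells was deposited by the authors, for each of 12 samples, as whole unnormalised counts per gene symbol and as FPKM. Per the labels' protocols, the SMARTER mRNA-Seq kit was used on total RNA. The deposited FPKM are the same counts divided by a gene length and the library's summed counts (100% of values within a relative tolerance of 1e-06). Which aligner and counting tool were used, and whether strand was, is not given in the sources used here. GRCm38 and mm10, mouse assemblies, stand in the submitters' processing notes, while the symbols are human, so the build is unresolved and coordinates are given only for RefSeq promoters. Of the 24180 symbols 22776 matched RefSeq GRCh38.p14 directly and 276 by a synonym.

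Groups came from the sample titles. Counts were tested with edgeR 4.0.16 in R 4.3.3: TMM factors (0.951 to 1.05), a filterByExpr minimum count of 10, and 1 quasi-likelihood fit over the 12 libraries, 1 mean for each group (common biological coefficient of variation 0.117), Benjamini-Hochberg adjusted over 15407 genes. Values are TMM-scaled CPM, and SE is the absolute log2 fold change over the square root of F. FPKM served only in alternatives, on log2(FPKM + 1) and log2(FPKM + 0.1) in limma 3.58.1; DESeq2 1.42.0 was another. The code was tested on simulated data. Total counts of 34434993 to 38163152 limit the precision of genes with few counts.

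The named genes are, of the called ones averaging 5 CPM or more in either group, with no overlap between the groups and a symbol of the official kind, those 12 with the highest and those 12 with the lowest log2 fold change, up to 4 called members of each list with the smallest adjusted p, and a fixed set of heat, iron, growth and bone genes. JUNB, IER5, NXF1, HSPG2, FN1, DNAJB6, CHORDC1, HSPA6, H1-5, H3C13, SNHG10 and the genes below 5 CPM in the closing section were picked after their values were seen. The comparison, the 43 lists (1057 entries) and this rule were chosen with earlier results of these data known, so lists are described by counts and medians only. A higher gene and a list are not reported here.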

Additional observations from a re-analysis of the deposited data

How the results depend on the processing

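No called gene changed sign in any of the 24 alternatives, and 40 of the 131 called genes kept their call in every alternative that tested them; 42 kept it without each of the 12 libraries in turn, 41 of them lower. The number higher, 15, is the less stable: it was 96 by DESeq2, 6 when scaled by library size only, 25 with no low-count filter, 3 with the 6 libraries alone, 75 with the gene length trend removed and 67 with 3 libraries dropped at once (M-BSG-Hot 3, M-BSG 1, BSG 1). Without 1 library it was 28 (M-BSG 1), 11 (M-BSG 2), 5 (BSG 1 or BSG 2), 4 (M-BSG-Hot 2), 2 (M-BSG-Hot 1, M-BSG 3, BSG 3, NC 1 or NC 3) or 1 (M-BSG-Hot 3 or NC 2). The number lower, 116, was 295 by DESeq2, 60 with the 6 libraries alone, 222 with the length trend removed, 193 without those 3 libraries, and between 49 (without BSG 2 or M-BSG-Hot 1) and 135 without 1 library, with 62 without BSG 3 and 69 without M-BSG-Hot 3. M-BSG against BSG gave 50 calls by DESeq2, 38 with no filter, 111 without the 3 libraries, and 3 (without M-BSG 3) to 27 without 1. M-BSG-Hot against M-BSG gave 276 by DESeq2, 213 with the length trend removed, 275 without the 3 libraries, and 25 (without M-BSG 3) to 143 without 1. The alternatives for these last comparisons were added after seeing the data. The causes were not tested.

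For samples of M-BSG-Hot and BSG with the same number, the deviations from the group means had correlations of -0.399, 0.0427 and -0.378. Shifts of a whole library enter these values too, so they cannot settle whether equal numbers mark a pair, which the labels do not say. With a replicate block 11 genes were higher and 111 lower. With 3 libraries a group, a permutation test of 1 gene cannot give a p under 0.1. Genes near the floor of 3 counts have fold changes that depend on the prior count.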

Other observations

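Of the 116 lower genes 36 had a mean below 5 CPM in both groups, among them receptors and a lipid-binding protein with hardly any counts in NC. LAG3, an inhibitory receptor known from lymphocytes, had 0.163, 0.429 and 0.217 CPM in M-BSG-Hot, against 1.48, 1.146 and 1.17 CPM in M-BSG, 1.82, 2.14 and 1.75 CPM in BSG and 0.113, 0.0519 and 0.0789 CPM in NC. It fell by 2.80 on the log2 scale in M-BSG-Hot against BSG (SE 0.342, edgeR adjusted p = 0.00127). PTGER3, a receptor of prostaglandin E2, had 0.136, 0.51 and 0.163 CPM in M-BSG-Hot and 1.90, 2.72 and 2.83 CPM in BSG, and fell by 3.19 (SE 0.439, edgeR adjusted p = 0.00297). APOL4, an apolipoprotein L, had 0.0272, 0.0537 and 0.0272 CPM in M-BSG-Hot, at or under the limit that a count of 0 allows. In BSG it had 1.62, 0.967 and 0.89 CPM, and it fell in M-BSG-Hot with an edgeR adjusted p of 0.00292. APOL4 reached the filter's minimum count in BSG libraries alone. It thus entered the test only through the group where it was high, so a call could only come out as lower. CD14, a monocyte receptor and the 1 called member of the 2 immune markers tested, had 0.462, 0.698 and 0.679 CPM in M-BSG-Hot, against 1.85, 1.65 and 1.91 CPM in BSG and 0.652, 0.597 and 0.368 CPM in NC (log2 fold change -1.55, SE 0.277, edgeR adjusted p = 0.017), a call lost without BSG 1, BSG 2, BSG 3, M-BSG-Hot 1 or M-BSG-Hot 3, with adjusted p up to 0.11.

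A few lower lncRNAs stood in M-BSG-Hot below NC as well as below BSG. LINC01355 had 0.516, 1.13 and 1.25 CPM in M-BSG-Hot, against 4.11, 3.97 and 3.65 CPM in M-BSG, 2.83, 3.19 and 2.67 CPM in BSG and 4.08, 4.88 and 3.63 CPM in NC, and fell by 1.58 against BSG (SE 0.249, edgeR adjusted p = 0.00719). ZKSCAN2-DT, a divergent transcript, averaged 1.01 ± 0.177 CPM in M-BSG-Hot, 2.83 ± 0.44 CPM in M-BSG, 2.43 ± 0.284 CPM in BSG and 2.77 ± 0.152 CPM in NC (SD, n = 3 each), and fell by 1.26 (SE 0.201, edgeR adjusted p = 0.00777). SNHG10 had 6.85, 7.94 and 8.85 CPM in M-BSG-Hot, against 17.1, 15.5 and 14.4 CPM in BSG and 13.4, 13.0 and 12.3 CPM in NC, and fell by 0.99 (SE 0.116, edgeR adjusted p = 0.00101).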
